A study of Mus musculus with 2 samples.

Results

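The genes described here encode the proteins that license replication origins and copy DNA at the replication fork. They comprise 49 genes, chosen by name as the subunits and regulators of 10 groups: the origin recognition complex, the licensing factors with geminin, the MCM2-7 helicase, the factors that activate it, the DNA polymerases, the sliding clamp and its loaders, the enzymes that finish Okazaki fragments, replication protein A, and the proteins that deposit histones and protect forks. All 49 genes, out of 27790 genes with a probe, were represented on both arrays, by 76 probes in total. Each gene was followed through its brightest probe, the one with the highest intensity averaged over both dyes and both arrays.

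The study compared 2 mouse melanoma cell lines that both express green fluorescent protein (GFP). B16F1-GFP-M is the maternal line, a B16F1 transfectant used to challenge mice, and B16F1-GFP-D is the dormant line derived from it. B16F1-GFP-D descends from 1 colony, grown from GFP-positive cells that were sorted out of the combined organs of vaccinated and control mice that had stayed free of tumours, so it stands for 1 clone that had resumed growth in culture and not for cells at rest in an animal. Both lines were grown in DMEM with 10% serum and antibiotics, received no treatment, and gave total RNA. The RNA of the lines was hybridised together on 2 arrays with the dyes exchanged: on array 1 B16F1-GFP-D carried Cy3, and on array 2 it carried Cy5. There was 1 replicate per line, so no test between the lines was possible, and every standard deviation (SD) below is the spread between the 2 arrays only.

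Replication is prepared in G1 phase, when the origin recognition complex, Cdc6 and Cdt1 load MCM2-7 rings on DNA, and geminin prevents a repeat of this loading once S phase has begun. In S phase Cdc45 and the GINS complex turn each loaded ring into a moving helicase, and polymerases, the PCNA clamp and its loaders, replication protein A and ligase copy the unwound strands. Many of these genes are transcribed under E2F factors in cells that enter the cycle, and quiescent cells are known to carry little MCM protein.

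Values are given as log2 ratios of the dormant to the maternal line, or as normalised log2 intensities of the probe in each line. A gene was detected when its probe lay well above background in the same line on both arrays, and a detected gene was called higher or lower when each array gave a log2 ratio of 1 or more in size, a 2-fold difference, with the same sign. All 49 genes were detected, and for 47 of them this held for each line. In RNA from a whole culture, a larger share of cells in S phase and more of these transcripts per cell cannot be told apart. The study's flow cytometry, on cells transfected with small interfering RNA, gave B16F1-GFP-D a larger G0/G1 share than B16F1-GFP-M. Whether the cultures hybridised here had the same shares was not tested. Of the 49 genes, 32 were called higher in B16F1-GFP-D, which is 65.3%, against 3.09% of all 12539 detected genes. None of the 49 was called lower, against 1.94% of all detected genes. The median log2 ratio was 1.22 over the 49 genes and -0.01 over all detected genes, and 41 of the 49 stood in the highest 10% of detected genes. The log2 ratio was above 0 on both arrays for 45 genes and below 0 on both for 4, which were *Orc2*, *Orc3*, *Orc4* and *Orc5*. Of all 12539 detected genes, 5142, or 41%, were above 0 on both arrays and 5363 were below 0 on both.

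**Figure D1:**
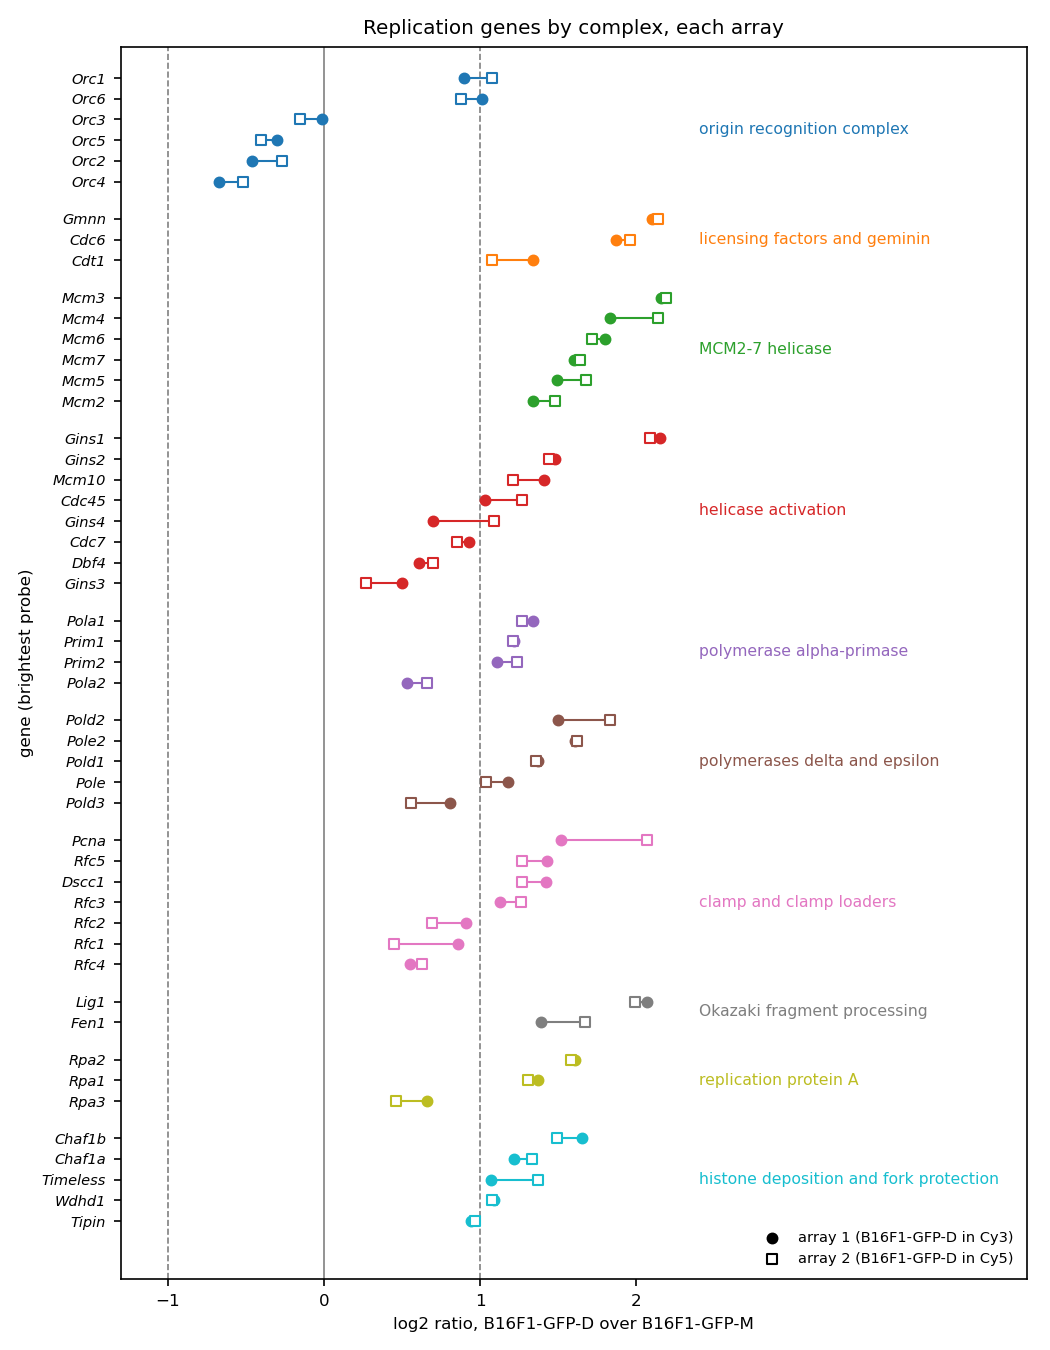
Dormant-to-maternal log2 ratio (horizontal axis) for each of the 49 genes (vertical axis), grouped and coloured by complex, with a filled circle for array 1 and an open square for array 2. The dashed lines mark -1 and 1. All 6 MCM2-7 genes lie to the right of 1 on both arrays, while *Orc2*, *Orc3*, *Orc4* and *Orc5* lie to the left of 0.

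The 6 genes of the MCM2-7 helicase, the ring that opens the parental strands, were all called higher in B16F1-GFP-D, with a median of 1.69. *Mcm3* had the highest mean of all 49 genes as reported. It had log2 intensities of 12.92 in B16F1-GFP-D and 10.76 in B16F1-GFP-M on array 1, and of 13.07 and 10.88 on array 2. Its mean log2 ratio was 2.17 ± 0.02, or 4.51-fold, and a dimmer *Mcm3* probe gave 2.07 on array 1 and 2.32 on array 2. The *Mcm3* probe lies at chr1:20793119-20793178 of mm9, the build in the array files. The dormant line was the brighter of the pair in both dye orientations, on both probes of the gene.

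*Mcm4* had log2 intensities of 13.30 and 11.47 on array 1, and of 13.40 and 11.26 on array 2, in B16F1-GFP-D and B16F1-GFP-M respectively. *Mcm6* had 14.73 and 12.93 on array 1 and 14.49 and 12.77 on array 2 in the same order. *Mcm7* had 13.34 and 11.73, then 13.30 and 11.66. For these subunits, too, both values of the dormant line lay above both values of the maternal line, and the mean log2 ratios were 1.99 for *Mcm4*, 1.76 for *Mcm6* and 1.62 for *Mcm7*. *Mcm5* had 12.78 and 11.28 on array 1 and 12.91 and 11.23 on array 2, a mean log2 ratio of 1.59. *Mcm2*, the lowest of the group, had 12.00 and 10.66 on array 1 and 12.00 and 10.52 on array 2, a mean of 1.41 ± 0.10. The subunits form a ring with 1 copy of each, and their log2 ratios spanned 0.76 from the lowest to the highest.

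The licensing factors were higher as well, with a median log2 ratio of 1.92 and all 3 genes called. *Cdc6*, the ATPase that helps place the MCM ring, had log2 intensities of 9.58 in B16F1-GFP-D and 7.70 in B16F1-GFP-M on array 1, and of 9.69 and 7.73 on array 2. Its mean log2 ratio was 1.92 ± 0.06, or 3.77-fold, and its dimmer probe gave 1.65 ± 0.03. *Cdt1*, which brings MCM2-7 to the origin, had 13.57 and 12.23 on array 1 and 13.37 and 12.30 on array 2, a mean of 1.21 ± 0.19. *Gmnn*, which encodes geminin, the inhibitor of Cdt1, had 12.67 and 10.57 on array 1 and 12.69 and 10.55 on array 2. Its mean log2 ratio of 2.12 ± 0.03, or 4.35-fold, was higher than that of its target *Cdt1* on each array.

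In the origin recognition complex, the ATPase that marks origins and on which MCM2-7 is loaded, none of the 6 genes was called in either direction. Its median log2 ratio was -0.22 and its genes spanned 1.58. *Orc4* had log2 intensities of 10.00 in B16F1-GFP-D and 10.67 in B16F1-GFP-M on array 1, and of 10.16 and 10.67 on array 2. *Orc2* had 10.40 and 10.86 on array 1 and 10.60 and 10.86 on array 2. *Orc5* had 7.37 and 7.67, then 7.21 and 7.62. In these core subunits the maternal line was the brighter one on both arrays, with mean log2 ratios of -0.59 ± 0.11 for *Orc4*, -0.36 ± 0.14 for *Orc2* and -0.35 ± 0.07 for *Orc5*. *Orc3* had 9.08 and 9.10 on array 1 and 9.11 and 9.25 on array 2, and its mean of -0.08 ± 0.09 was smaller than its spread.

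The remaining subunits, *Orc1* and *Orc6*, stood on the other side. *Orc1*, whose protein is degraded and remade within each cycle in mammalian cells, had log2 intensities of 7.27 and 6.36 on array 1 and of 7.72 and 6.64 on array 2, in B16F1-GFP-D and B16F1-GFP-M respectively. *Orc6*, the smallest and most loosely bound subunit, had 11.94 and 10.93 on array 1 and 11.91 and 11.03 on array 2. Both were brighter in the dormant line on each array but fell short of a call, with log2 ratios of 0.90 and 1.08 for *Orc1* and of 1.01 and 0.88 for *Orc6*. The *Orc1* probe was dim, and in B16F1-GFP-M it was well above background on array 1 but not on array 2. Its log2 ratio ranged from 0.90 to 2.89 over the single arrays and the other ways of processing, median centring left out. *Orc1* was called when the offset of the background correction was 0 in place of 50, where its log2 ratio was 1.91. It was also called with the log ratio of the scanner software, with the series value table that holds it, on array 2 alone and at 1.5-fold. *Orc6* was called on array 1 alone and at 1.5-fold. The other probes of the complex gave -0.17, -0.19 and -0.31 for *Orc4*, and -0.02 and 0.07 for *Orc3*. A further *Orc5* probe, which was not detected, gave a mean of 0.00.

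**Figure D2:**
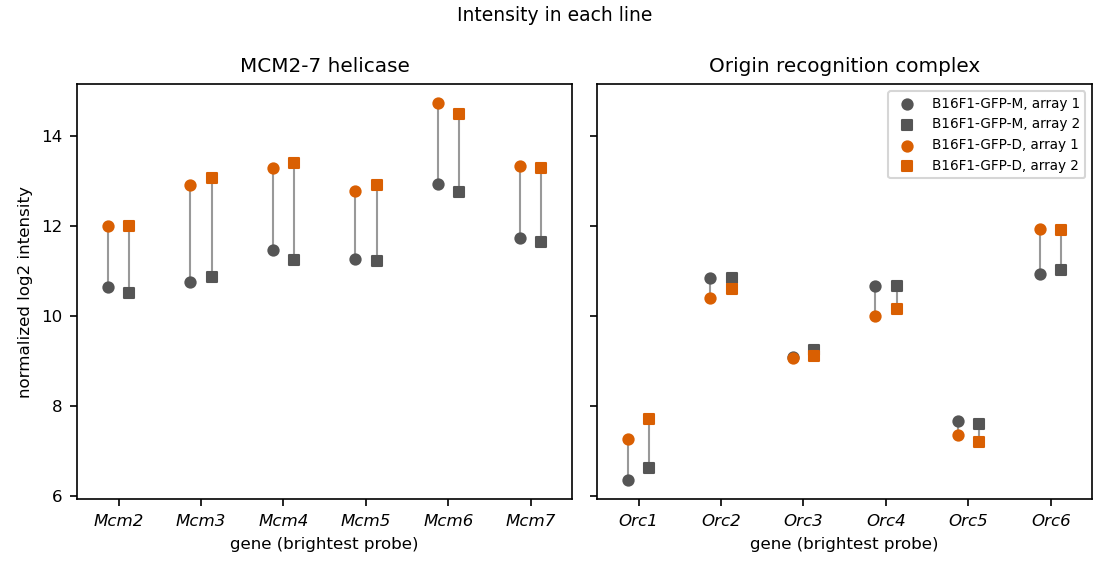
Normalised log2 intensity (vertical axis) of the brightest probe of each MCM2-7 gene (left) and each origin recognition complex gene (right), in B16F1-GFP-D (orange) and B16F1-GFP-M (grey), with circles for array 1, squares for array 2 and a line joining the lines of 1 array. All 6 *Mcm* genes are brighter in the dormant line on each array, and *Orc4* has 10.00 and 10.16 in B16F1-GFP-D against 10.67 and 10.67 in B16F1-GFP-M.

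The promoters of these genes were read for the E2F words TTTCCCGC, TTTGGCGC, TTTGCCGC and TTTCGCGC on both strands, in the RefSeq window of 300 bases from 250 before to 50 after the start site (assembly GRCm38.p6, the window listed first for a gene). Of the 49 genes, 39 had a window, and 14 of these, or 35.9%, held at least 1 word, against 2.32% of 27025 genes with a window and 4.32% of 8964 detected genes. TTTCCCGC stood in 8 of the 39, TTTGGCGC in 6, TTTCGCGC in 5 and TTTGCCGC in 0. Among the genes called higher, 10 of 25 held a word, and among those not called, 4 of 14 did. Other words known from promoters of cell cycle genes were counted too. CCAAT, the NF-Y box, stood in 53.8% of the 39 windows, against 37.9% for all genes and 39.4% for detected genes. TTTGAA, the core of the CHR element, stood in 15.4%, against 18.1% for all genes and 11.6% for detected genes. By group, a word was found in 4 of 5 MCM2-7 genes with a window (not *Mcm2*) and in both licensing genes with a window. The origin recognition complex had 2 of 6, polymerases delta and epsilon 3 of 4 and polymerase alpha-primase 1 of 3. Helicase activation had 1 of 5, and so had the clamp and its loaders. No word was found in the 3 replication protein A genes, the 2 Okazaki fragment genes and the 4 histone deposition and fork protection genes. A match describes the letters only, and no binding was measured. The stretches below lie before the start site and are written 5′ to 3′ on the strand of the gene, with E2F words in capitals. They were chosen to set MCM2-7, licensing and polymerase genes that were called higher beside the origin recognition genes with a word and *Orc4*, which has none. The called genes shown all hold a word, whereas only 10 of the 25 called genes with a window did.
Mcm5 (chr8:75109336-75109387, plus strand): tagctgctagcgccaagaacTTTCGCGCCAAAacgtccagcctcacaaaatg
Mcm6 (chr1:128359725-128359835, minus strand): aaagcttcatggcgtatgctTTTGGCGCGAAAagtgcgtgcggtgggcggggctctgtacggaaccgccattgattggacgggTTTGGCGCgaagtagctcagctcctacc
Mcm7 (chr5:138172021-138172068, minus strand): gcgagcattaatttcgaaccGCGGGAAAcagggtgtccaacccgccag
Cdc6 (chr11:98907993-98908040, plus strand): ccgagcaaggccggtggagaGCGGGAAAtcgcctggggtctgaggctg
Pola1 (chrX:93632266-93632313, minus strand): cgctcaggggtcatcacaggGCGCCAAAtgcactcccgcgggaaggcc
Orc1 (chr4:108579407-108579453, plus strand): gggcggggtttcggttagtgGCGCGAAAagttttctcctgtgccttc
Orc3 (chr4:34614956-34615003, minus strand): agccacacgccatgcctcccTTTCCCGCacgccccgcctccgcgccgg
Orc4 (chr2:48950082-48950181, minus strand): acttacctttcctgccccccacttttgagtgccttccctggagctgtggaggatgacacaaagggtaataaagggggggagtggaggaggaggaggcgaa

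In *Mcm5* and *Mcm6*, 2 overlapping words form a run of 12 bases, TTTCGCGCCAAA and TTTGGCGCGAAA, and each run is the reverse complement of the other. Before the start site, *Mcm7*, *Cdc6* and *Gins3* share GCGGGAAA, which stands in *Orc3* as its reverse complement TTTCCCGC. At or after the start site, GCGGGAAA also stands in *Mcm3*, *Rfc3* and *Pold1*, and TTTCCCGC in *Pold3*. A word was present both in genes with mean log2 ratios above 1.5, such as *Mcm7* and *Cdc6*, and in *Orc3*, whose mean was -0.08, and in *Gins3*, whose mean was 0.38. *Mcm2* was called higher with none of the words in its window.

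Of the 8 genes that activate the loaded helicase, all had log2 ratios above 0 on both arrays and 4 were called higher, with a median of 1.03. *Gins1*, a subunit of the GINS complex that joins MCM2-7 to Cdc45, had log2 intensities of 10.87 in B16F1-GFP-D and 8.73 in B16F1-GFP-M on array 1, and of 11.00 and 8.91 on array 2. Its mean log2 ratio was 2.12 ± 0.04, and its dimmer probe gave 1.88 ± 0.05. The other GINS genes were lower than *Gins1* on each array. *Gins2* had log2 ratios of 1.48 and 1.44, *Gins4* had 0.70 and 1.09, and *Gins3* had 0.50 and 0.27, the lowest mean of the 43 genes outside the origin recognition complex. The log2 ratios of the GINS genes spanned 1.73, and only *Gins1* and *Gins2* were called. Their proteins form a tetramer with 1 copy of each, but the arrays measured RNA only.

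*Mcm10*, a scaffold needed for helicase activation, had log2 intensities of 12.40 and 10.98 on array 1 and of 12.33 and 11.12 on array 2, in B16F1-GFP-D and B16F1-GFP-M respectively, a mean log2 ratio of 1.31 ± 0.14. *Cdc45*, the helicase cofactor, had 8.53 and 7.49 on array 1 and 8.62 and 7.35 on array 2, a mean of 1.15 ± 0.17. Both were called higher. The kinase gene *Cdc7* and *Dbf4*, which encodes its activating subunit, were not: their log2 ratios were 0.93 and 0.85, and 0.61 and 0.70, on arrays 1 and 2. The dimmer *Cdc7* probes gave 0.35 and 0.33.

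The polymerase genes all had log2 ratios above 0 on both arrays, and 7 of 9 were called higher. In polymerase alpha-primase, which lays down each primer, *Pola1*, the catalytic subunit, had log2 intensities of 10.63 and 9.29 on array 1 and of 10.70 and 9.43 on array 2. *Prim1*, the primase subunit, had 12.25 and 11.03 on array 1 and 12.37 and 11.16 on array 2, and *Prim2*, its partner, had 10.58 and 9.47, then 10.74 and 9.50. These genes had closely spaced mean log2 ratios of 1.31, 1.22 and 1.17, while *Pola2*, the accessory subunit, had 0.53 and 0.66 and was not called. The *Pola2* probe was dim as well, and in B16F1-GFP-M it was well above background on array 1 but not on array 2. Its log2 ratio ranged from 0.13 to 1.67 over the same settings as for *Orc1*. *Pola2* was called at an offset of 0, where its log2 ratio was 1.25, with the log ratio of the scanner software and with the series value table. Its further probes, which were not detected, had means of 0.13 and -0.09.

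Among the polymerases that extend the strands, the median log2 ratio was 1.36. *Pold2*, an accessory subunit of polymerase delta, had log2 intensities of 10.37 and 8.87 on array 1 and of 10.67 and 8.84 on array 2. *Pole2*, an accessory subunit of polymerase epsilon, had 8.83 and 7.22 on array 1 and 9.22 and 7.60 on array 2. These 2 had higher mean log2 ratios, 1.66 ± 0.23 and 1.61 ± 0.01, than the genes of the catalytic subunits, *Pold1* with 1.36 ± 0.01 and *Pole* with 1.11 ± 0.10. *Pold1* had 12.96 and 11.59, then 12.99 and 11.63, and *Pole* had 10.62 and 9.44, then 10.68 and 9.64. *Pold3*, which links polymerase delta to the clamp, had log2 ratios of 0.81 and 0.56 by its brightest probe and was not called. Its other probes gave 1.02 and 1.00, and 0.24 and 0.48. The further subunit genes *Pole3*, *Pole4* and *Pold4*, which were not among the 49, had mean log2 ratios of 0.52, 0.30 and -0.57.

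The clamp gene was among those with the highest ratios and its loaders were spread. *Pcna*, which encodes the ring that tethers polymerases to DNA, had log2 intensities of 13.93 in B16F1-GFP-D and 12.41 in B16F1-GFP-M on array 1, and of 14.16 and 12.09 on array 2. Its mean log2 ratio of 1.80 ± 0.39 had the widest spread of the 49 genes, the only case in which the arrays differed by more than 0.5. Of the clamp loader subunits, *Rfc5* had log2 ratios of 1.43 and 1.27 and *Rfc3* had 1.13 and 1.26. *Dscc1*, which belongs to an alternative loader that acts in sister chromatid cohesion, had 1.42 and 1.27. These 3 were called higher. *Rfc2*, with 0.91 and 0.69, *Rfc1*, the large subunit, with 0.86 and 0.45, and *Rfc4*, with 0.55 and 0.63, were above 0 on both arrays but not called.

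Both genes that finish Okazaki fragments were called higher. *Lig1*, the ligase that seals the nicks, had log2 intensities of 13.12 and 11.05 on array 1 and of 13.18 and 11.19 on array 2, in B16F1-GFP-D and B16F1-GFP-M respectively, a mean log2 ratio of 2.03 ± 0.06 or 4.08-fold. *Fen1*, the nuclease that removes the flaps, had 10.10 and 8.70 on array 1 and 10.23 and 8.56 on array 2, a mean of 1.53 ± 0.20. With *Mcm3*, *Gmnn* and *Gins1*, *Lig1* was 1 of the 4 genes with a mean of at least 2 as reported. At an offset of 0 in the background correction, *Cdc6* with 2.29 and *Pole2* with 2.05 reached 2 as well.

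Replication protein A coats the exposed strand. Its large subunit gene *Rpa1* had log2 intensities of 13.52 and 12.15 on array 1 and of 13.44 and 12.13 on array 2, and *Rpa2* had 10.25 and 8.64, then 10.24 and 8.66. Both were called higher, with mean log2 ratios of 1.34 and 1.60. The smallest subunit, *Rpa3*, had 10.84 and 10.18 on array 1 and 9.88 and 9.43 on array 2, and its log2 ratios of 0.66 and 0.46 were not called. The log2 ratio of *Rpa3* was lower than those of *Rpa1* and *Rpa2* on each array. The proteins work as a trimer, but the arrays measured RNA only.

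Of the genes that deposit histones behind the fork or keep it together, 4 of 5 were called higher. *Chaf1b*, a subunit of chromatin assembly factor 1, had log2 intensities of 12.63 and 10.98 on array 1 and of 12.42 and 10.94 on array 2, a mean log2 ratio of 1.57 ± 0.12. *Chaf1a*, the large subunit, had 11.02 and 9.80, then 11.06 and 9.72, a mean of 1.28. *Timeless* and *Tipin*, which form the fork protection complex, had log2 ratios of 1.07 and 1.37, and of 0.94 and 0.97, so *Timeless* was called and *Tipin* was not. *Wdhd1*, the link between the helicase and polymerase alpha, had 1.09 and 1.08.

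The 2 dye orientations ranked the genes alike. Across the 49 genes Pearson's r between the arrays was 0.956 and Spearman's rho was 0.935, and across all detected genes they were 0.927 and 0.889. These are correlations across genes between arrays that count as 1 replicate per line, and genes are not independent replicates. The ratio was larger on array 1 for 25 of the 49 genes and larger on array 2 for 24, and the pooled SD between arrays was 0.14 for them and 0.15 for all detected genes. The genes without a call were the 6 of the origin recognition complex and 11 of the 43 others. All 43 were above 0 on both arrays, against 41% of all detected genes, and their median log2 ratio was 1.31.

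**Figure D3:**
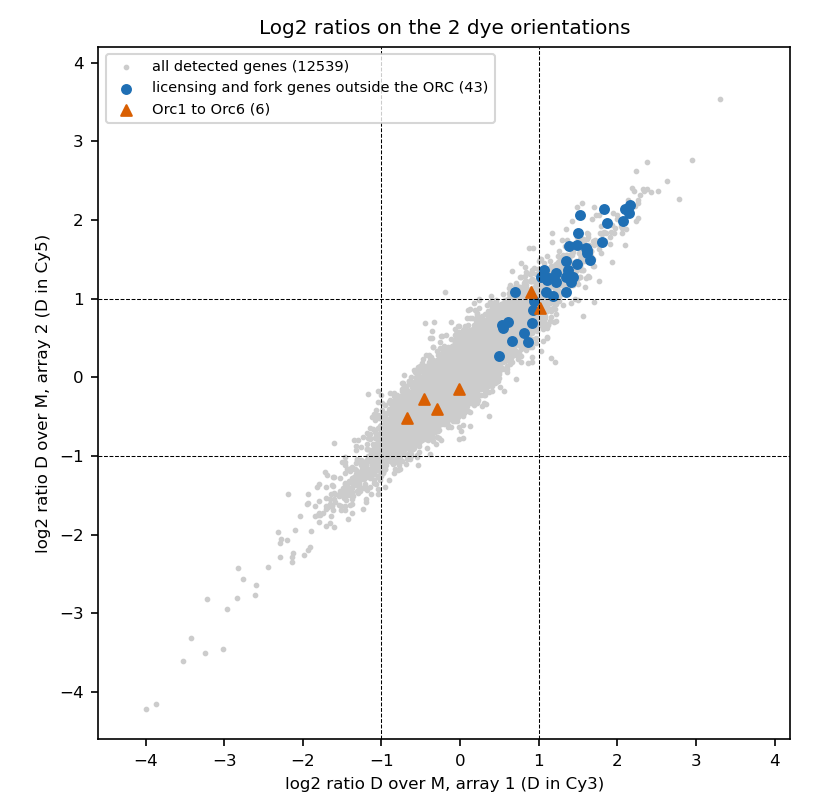
Dormant-to-maternal log2 ratio on array 1 (horizontal axis) against array 2 (vertical axis) for 12539 detected genes (grey), the 43 licensing and fork genes outside the origin recognition complex (ORC, blue) and *Orc1* to *Orc6* (orange triangles). The dashed lines mark -1 and 1, and the blue points all lie above 0 on both axes.

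A further probe was present for 19 of the 49 genes, 27 probes in all. Of these, 19 were detected, 15 had a log2 ratio above 0 on both arrays and 8 were past 1 on each. Outside the origin recognition complex, all 14 detected further probes were above 0 on both arrays. The other 8 further probes, for *Mcm4*, *Orc5*, *Dbf4*, *Pola2*, *Pole*, *Chaf1b* and *Wdhd1*, were not detected, and their mean log2 ratios lay between -0.09 and 0.13. When the median over a gene's probes replaced the brightest probe, 28 genes were called, against 2.45% of the 12549 genes detected in that way. *Mcm4*, *Pole* and *Chaf1b*, each with a further probe that was not detected, lost the call, and so did *Timeless*, whose further probe was detected and gave 0.93 and 1.05.

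The genes lie on many chromosomes. Chromosome 5 held the most, 9 genes, and it held 769 of all 12539 detected genes, with a median log2 ratio of 0.03. *Gmnn* and *Chaf1a*, which were called higher, lie on chromosomes 13 and 17. The medians of all detected genes on those chromosomes were -0.16 and -0.17. Whether the ratios depend on chromosome was not tested.

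Replication genes that were not among the 49 were read in the same way. Of 42 such genes, all detected, 11 were called higher and none lower, and their median log2 ratio was 0.50. Among all detected genes 3.09% were called higher and 1.94% lower, so the absence of lower calls in a list this short is near that share. The partners of origin firing had a median of 0.23 with 1 of 11 called, *Topbp1*, which helps bring Cdc45 to the helicase, with 1.09 and 1.39, and their lowest was *Rif1*, which restrains origin firing, with -0.06 and -0.19. The genes that control the turnover of Cdt1, Orc1 and geminin had a median of 0.31 with 1 of 7 called, *Dtl*, a substrate receptor for Cdt1, with 1.36 and 1.17, and their lowest was the ubiquitin ligase scaffold *Cul4b* with -0.06 and -0.27. The partners of the fork had a median of 0.58 with 3 of 13 called, the highest being *Pclaf*, which encodes a PCNA-binding protein, with 2.05 and 1.93, and the lowest *Pold4*, the smallest polymerase delta subunit, with -0.81 and -0.32. The genes of replicated chromatin had a median of 1.39 with 6 of 11 called. Their highest was *Uhrf1*, which reads hemimethylated DNA behind the fork, with 1.67 and 1.61, and their lowest was the histone chaperone gene *Asf1a*, with -1.06 and -0.84.

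Genes of mitosis and of nucleotide synthesis were set beside them. A list of 26 mitosis genes had 16 called higher and a median log2 ratio of 1.33, with *Aurkb*, the kinase of the chromosomal passenger complex, the highest at 1.85 and the kinetochore gene *Ndc80* the lowest at 0.22. A list of 21 nucleotide synthesis genes had 6 called higher and a median of 0.68, from *Rrm2*, which encodes a ribonucleotide reductase subunit, at 2.20 down to *Ctps*, for CTP synthase, at 0.14. By the same rule 3.09% of all detected genes were called higher and 1.94% lower. No gene of either list was called lower, which in lists this short is near the share of all detected genes. All genes of both lists were above 0 on both arrays, against 41% of all detected genes.

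**Figure D4:**
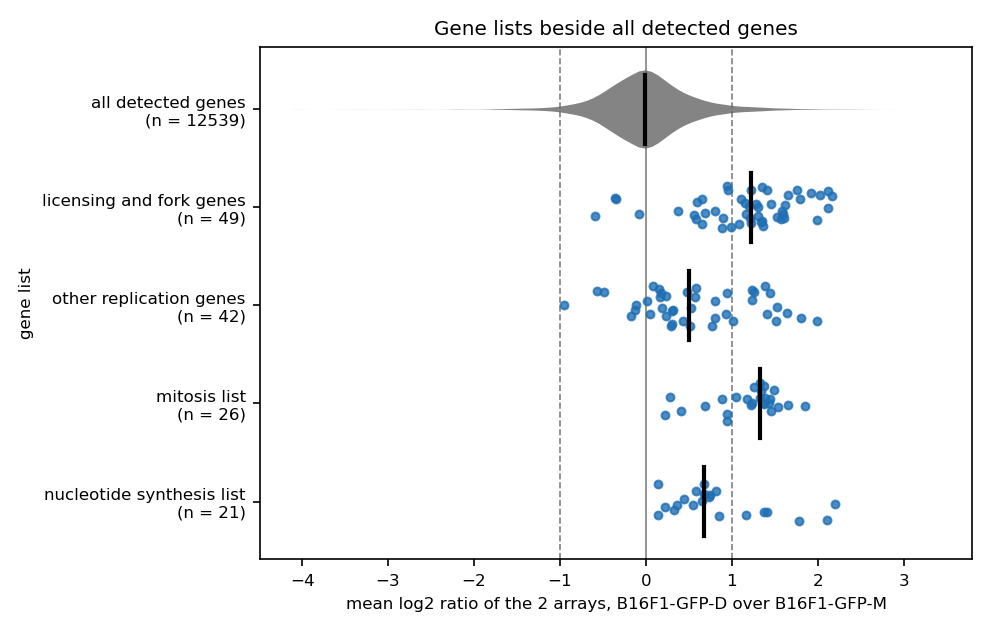
Mean log2 ratio of the 2 arrays, B16F1-GFP-D over B16F1-GFP-M (horizontal axis), for all 12539 detected genes (grey density), the 49 licensing and fork genes, 42 other replication genes, 26 mitosis genes and 21 nucleotide synthesis genes (blue points, 1 per gene). Black bars are medians, which stand at -0.01, 1.22, 0.50, 1.33 and 0.68, and the dashed lines mark -1 and 1.

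Both arrays gave usable values for the genes described. Each had 43379 spots that were not controls, none of them saturated, and between 44.1% and 60.7% of spots were well above background in a given line. The lines were labelled as melanoma, and all 7 melanocyte marker genes were well above background in each line, with a median log2 ratio of -0.34. Of markers of other cells, 2 of 9 fibroblast genes reached this level in each line, and 3 of 8 leukocyte genes in B16F1-GFP-D and 1 of 8 in B16F1-GFP-M. None of the endothelial, keratinocyte and hepatocyte markers did. Summed over the list, the net signal of the leukocyte markers was 708 in B16F1-GFP-D and 813 in B16F1-GFP-M in Cy5, and 334 and 309 in Cy3, so its direction turned with the dye. That of the fibroblast markers was 535 and 465 in Cy5 and 293 and 246 in Cy3, and that of the melanocyte markers was 839508 and 735902 in Cy5 and 175164 and 138973 in Cy3. These sums were not normalised, and each pair in 1 dye sets 1 array against the other, so differences between arrays enter them. By normalised log2 ratio, 4 of the 7 melanocyte markers were below 0 on both arrays and 2 were above 0 on both.

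The count of genes called higher depended on how the arrays were processed. It was 32 as reported, and 35 with loess kept and the offset of the background correction set to 0, against 5.06% of all detected genes. It was also 35 with the log ratio of the scanner software, which has its own background subtraction and dye scaling, against 6.05%. Each of these settings added *Cdc7*, *Orc1* and *Pola2*. With median centring in place of loess it was 4, against 0.359% of all detected genes, since the median of all detected genes then stood at -0.86 on array 1 and 1.02 on array 2 and the arrays no longer shared a zero. No gene changed the sign of its mean log2 ratio under the 11 alternatives that changed the values, the filter, the probes or the arrays used, where 49 genes were compared, or 47 where each line had to be well above background. At 3-fold on each array 9 genes were called, against 0.59% of all detected genes, and at 1.5-fold 39, against 8.77%.

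**Figure D5:**
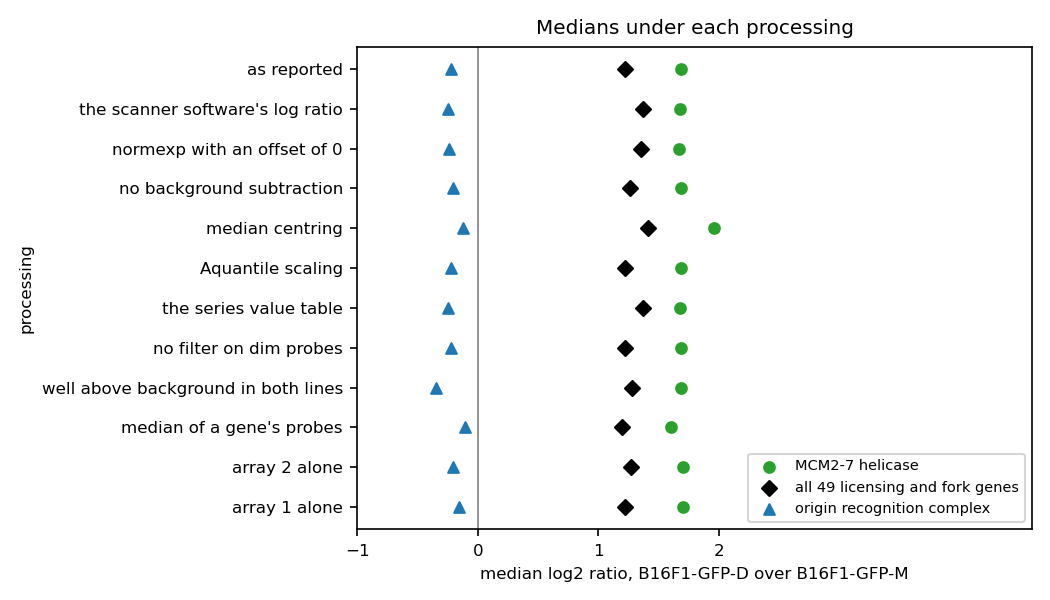
Median log2 ratio, B16F1-GFP-D over B16F1-GFP-M (horizontal axis), of the 49 licensing and fork genes (black diamonds, 47 where each line had to be well above background), the MCM2-7 genes (green circles) and the origin recognition complex genes (blue triangles) under each way of processing the arrays (vertical axis). The median of the licensing and fork genes lies between 1.20 and 1.41, and the origin recognition complex stays to the left of 0.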

How the data were processed

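RNA from both lines was hybridised to 2 Agilent 2-colour arrays, with the dyes swapped on the second. The deposited spot and background intensities come from the authors' scanner software, Agilent Feature Extraction 10.7.3.1, per the submitters' processing notes, without normalization. The deposited log10 ratios, of Cy5 over Cy3 after the authors' background subtraction and dye scaling, and the series value table that holds them, served as alternatives only. Spots flagged as outliers (143 on array 1, 176 on array 2) were dropped. Using limma 3.58.1 (R 4.3.3), mean signals were corrected by normexp with an offset of 50, normalised by loess within each array and turned to the dormant-to-maternal log2 ratio, and the spots of a probe were averaged. Per-line log2 intensities were scaled by Aquantile, which leaves ratios as they are. Older symbols were matched through accessions to RefSeq (GRCm38.p6), from which the promoter windows also came. Python 3.11.15 with numpy 2.4.6, pandas 2.3.3 and matplotlib 3.10.9 made tables and figures. The steps were tested on simulated data.

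The labels name no separate cultures, so the arrays count as 1 replicate per line and their small number limits the precision. The 49 genes and the lists were chosen with earlier results of these data known. Values are named for each gene called, for the highest and lowest of each complex, and for the highest and lowest of other lists, and further genes of the 49 were added after their values were seen. Alternatives changed background correction, normalization, probe filter, probe choice, fold threshold and arrays used.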

Additional observations from a re-analysis of the deposited data

How the results depend on the processing

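No paired analysis was possible because there was 1 replicate per line. The median log2 ratio of the 49 genes was 1.22 as reported, 1.37 from the ratios of the scanner software and 1.37 from the value table of the series, 1.35 at a normexp offset of 0, 1.26 when no background was subtracted, 1.41 under median centring and 1.28 over the genes well above background in each line. With array 1 or array 2 left out it lay between 1.22 and 1.27. Detection and the call then rested on the 1 array kept. With array 1 left out 34 genes were called higher, against 3.4% of 15196 detected genes. With array 2 left out 33 were, against 2.85% of 16650 detected genes. The genes called higher numbered 4 with median centring and 9 at 3-fold, against 32 as reported. The low count with median centring follows from the offset it leaves between the arrays. None of the 49 genes was called lower under any of 14 alternatives. Dim probes limit *Orc1* and *Pola2*, whose ratios were 1.91 and 1.25 at an offset of 0 and 2.89 and 1.67 in the value table, where background subtraction and dye scaling both differ. Further genes with dimmer probes moved too. At an offset of 0, *Cdc6* rose from 1.92 to 2.29, *Pole2* from 1.61 to 2.05 and *Cdc45* from 1.15 to 1.54. No alternative stands in for a second culture.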
